A study of Rattus norvegicus with 8 samples.

Results

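The solute carrier (Slc) genes encode membrane proteins that move ions, amino acids, transmitters, sugars, nucleosides and metabolites across the cell surface and the membranes of organelles. The genes described here were the Ensembl identifiers with at least 10 counts in at least 2 libraries whose symbol, by the identifier-symbol pairs that the study published, starts with Slc and a number. There were 45 such genes among the 1961 identifiers with a published symbol, in a table of 32623 identifiers of which 17100 reached the same count. These pairs are printed for genes in lists of differences, so the genes were chosen by values of these same libraries. Of the 45, 21 had been listed as higher in naïve males than in naïve females and 1, Slc35g2, as higher in naïve females. The interaction of sex and injury had listed 31, of which 9 were also in the naïve lists, and a change within 1 sex had listed 2, Slc16a11 in males and Slc4a1 in females. The naïve sex difference, the interaction and the changes within each sex are therefore given for these genes as descriptions. Counts of edgeR calls in these contrasts stand beside the share over all genes, and nothing is read from them. Solute carrier genes outside these pairs were not analysed here.

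RNA was measured in dorsal root ganglia (DRGs), which hold the cell bodies of the primary sensory neurons with their satellite glia, Schwann cells, fibroblasts and vessels. Sprague-Dawley rats with intact gonads were either naïve or had chronic constriction injury (CCI), a loose ligation of the sciatic nerve that serves as a model of neuropathic pain. The 8 libraries came from 2 males and 2 females without surgery and from 2 males and 2 females with CCI, each library from the pooled ipsilateral L4-L6 DRGs of 1 rat, taken on day 14 after surgery in the rats with CCI. The controls had no sham operation, so CCI here includes the skin and muscle wound, and the stage of the estrous cycle of the females was not identified.

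In sensory neurons, sodium-proton exchangers set the pH of the cytosol and of endosomes. Cation-chloride cotransporters set the chloride gradient on which the response to GABA depends. Carriers of the inner mitochondrial membrane feed oxidative metabolism, and transporters for GABA and glutamate clear or package these transmitters. In nerve and ganglion, several family members belong to glia, vessels or the meninges rather than to neurons.

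Total counts per library ranged from 39489103 to 60818457, and the 45 genes held from 0.37% to 0.425% of them. Levels are given as CPM (counts scaled to a common library size) after TMM normalization, which do not account for gene length and are compared between libraries, not between genes. All 45 genes passed the filter on low counts. In 44 of them every library had at least 10 counts, and the gene closest to the count threshold was Slc24a5, with at least 10 counts in 3 libraries. Measures of replicate spread did not order the sexes alike. The biological coefficient of variation over all genes was 21.85% in the 4 male libraries and 9.70% in the 4 female libraries. The median absolute log2 difference between the 2 rats of a group, over all genes, was 0.129 in the naïve males, 0.117 in the CCI males, 0.151 in the naïve females and 0.126 in the CCI females. Over the 45 genes the same median was 0.146, 0.0527, 0.128 and 0.15, in that order. Myelin and Schwann cell markers, of which 5 of 8 had a symbol, summed to 13108 and 10754 CPM in the naïve males, 3374 and 3220 in the CCI males, 9265 and 7519 in the naïve females and 5397 and 4130 in the CCI females. The 5 of 8 sensory neuron markers with a symbol summed to 4487 and 5448 CPM in the naïve males, 8194 and 8281 in the CCI males, 6152 and 5792 in the naïve females and 6753 and 7701 in the CCI females. Skeletal muscle markers (3 of 5 with a symbol) summed to 7.40 and 9.74 CPM in the naïve males, 45.9 and 47.6 in the CCI males and from 3.74 to 17.4 in the females. None of the 3 endothelial markers had a symbol, and 1 of 7 macrophage markers did. Markers have a symbol only through the same published pairs, so values of these libraries chose them as well. In bulk ganglia, fewer cells of a type and less RNA per cell cannot be told apart. The part of these shifts in the values below was not tested.

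**Figure D1:**
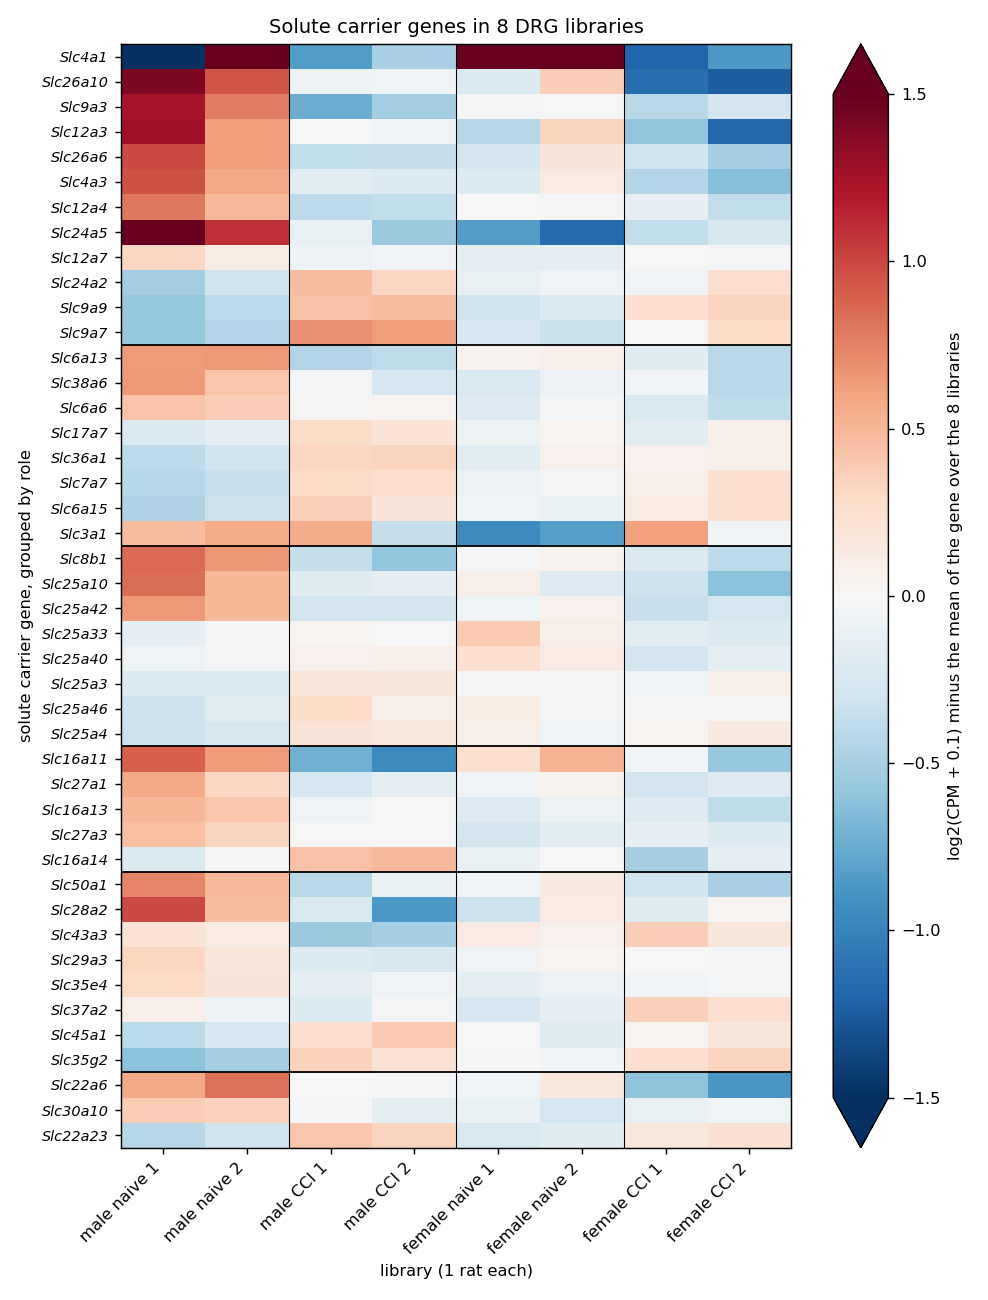
Level of 44 of the 45 solute carrier genes in each of the 8 libraries, as log2(CPM + 0.1) minus the mean of the gene over all libraries (red above the mean, blue below, colours limited to 1.5 either way), with horizontal lines between role groups. The naïve males hold the highest values of most genes in the upper rows of the ion, amino acid and mitochondrial groups, and Slc4a1 is low in naïve male 1 and high in naïve male 2 and both naïve females.

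The comparison of CCI with naïve rats, averaged over the sexes, was tested for the 43 genes that no list of a change within a sex had named. This average asks whether a gene changed with injury in males and females taken in equal weight. It called 18 of the 43 (41.9%), 4 higher and 14 lower in the injured rats. The call used edgeR's quasi-likelihood test with a Benjamini-Hochberg adjusted p below 0.05 and an absolute log2 fold change (log2FC) above 0.5. Over all 16988 genes tested the same call was made for 15.4%, with 6.08% higher and 9.29% lower. All 14 that fell had been listed as higher in naïve males. The paper reports that most genes on that list were downregulated after CCI in males, so nothing particular to solute carriers is read from this count. The naïve male libraries that chose 21 of the 43 genes enter this average and lower it for genes picked as high there, unless naïve males and naïve females vary alike. The interaction, which listed the rest of the 43, uses all 8 libraries as well. The share of 41.9% and the adjusted p of each gene below are therefore not independent of how the genes were chosen. Nothing is read from the distance of 41.9% to 15.4%, and each adjusted p is to be read with this limit. The change was larger in size in males than in females in 37 of the 43, beside 65.7% of all genes. An averaged change opposite in sign to the interaction is the same property by definition, read from another fit. It was seen in 37 of the 43, beside 65.5% of all genes. The values of females are given below for each gene that was called. In 13 of the 14 genes that fell, both CCI females were below both naïve females, beside 29% of all genes and 85.8% of the genes called lower. All 4 CCI rats were below all 4 naïve rats in 8 of the 14, beside 13% of all genes and 70.3% of those called lower. In the 4 genes that rose, all 4 CCI rats were above all 4 naïve rats, beside 16.9% of all genes and 90% of those called higher. Over the same libraries the summed Schwann cell markers were lower, and the summed sensory neuron markers higher, in every CCI rat than in every naïve rat. The 4 of 6 fibroblast markers with a symbol (from 2635 to 2983 CPM in naïve and from 1779 to 2518 in CCI rats) and Fabp7 of satellite glia (from 80.2 to 106 and from 46.1 to 63.5 CPM) were also lower in every CCI rat. The lists had named Mbp, Prx, Drp2, Ncmap and Scn9a for their change in males and Ncmap, Pvalb and Fabp7 for theirs in females. The order of CCI and naïve rats in these markers is therefore in part set by the choice. Members of these sums did not all move alike. In females 2 of the 4 fibroblast markers had a log2FC below 0 (Dcn -0.37 and Pdgfra -0.09), with 0.02 for Col1a1 and 0 for Col3a1. Of the 5 sensory neuron markers 1 was lower in females (Pvalb, -0.84) and 0 in males. All 5 Schwann cell markers were lower in both sexes, with Mag at -0.02 in females. The part of these markers in the changes was not tested.

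**Figure D2:**
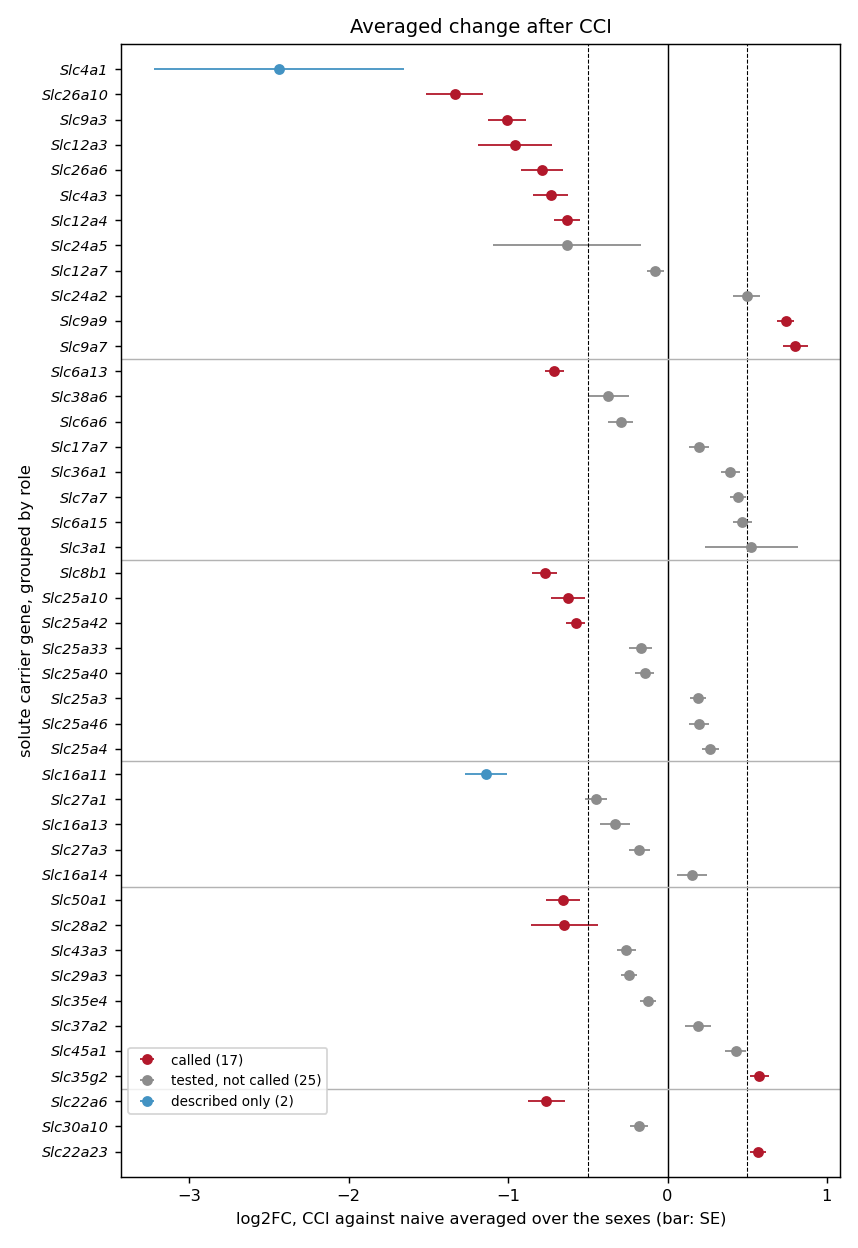
Averaged log2FC of CCI against naïve rats for 44 of the 45 genes, with the SE as a bar, grouped by role, dashed lines at -0.5 and 0.5, red for 17 of the 18 called, grey for the 25 tested and not called and blue for the 2 described without a test. The called values run from -1.33 for Slc26a10 to 0.80 for Slc9a7.

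The promoters of 4 ion exchangers are shown first, because Slc9a3, Slc9a7 and Slc9a9 are sodium-proton exchangers that moved in different directions and Slc26a10 fell the most. Each is the 250 bases before the RefSeq start, 5′ to 3′ on the strand of the gene, in the rat build GRCr8, which is not the build of the counts. Capitals mark matches on either strand to AP-1 (TGACTCA), CRE (TGACGTCA), E-box (CACGTG), GC box (GGGCGG) and CCAAT motifs, none of which contains another. The intervals are chr1:30996003-30996252 on the minus strand for Slc9a3, chrX:4767665-4767914 on the plus strand for Slc9a7, chr8:104112285-104112534 on the plus strand for Slc9a9 and chr7:64889410-64889659 on the minus strand for Slc26a10.
Slc9a3: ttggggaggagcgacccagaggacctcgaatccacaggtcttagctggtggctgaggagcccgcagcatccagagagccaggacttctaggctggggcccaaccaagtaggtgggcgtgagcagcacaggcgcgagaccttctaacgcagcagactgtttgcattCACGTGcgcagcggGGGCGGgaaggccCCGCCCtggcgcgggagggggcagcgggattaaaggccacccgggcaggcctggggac
Slc9a7: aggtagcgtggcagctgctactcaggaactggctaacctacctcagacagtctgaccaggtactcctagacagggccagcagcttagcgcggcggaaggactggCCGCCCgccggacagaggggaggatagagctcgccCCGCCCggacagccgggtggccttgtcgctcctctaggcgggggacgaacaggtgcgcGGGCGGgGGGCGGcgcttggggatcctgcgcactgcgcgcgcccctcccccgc
Slc9a9: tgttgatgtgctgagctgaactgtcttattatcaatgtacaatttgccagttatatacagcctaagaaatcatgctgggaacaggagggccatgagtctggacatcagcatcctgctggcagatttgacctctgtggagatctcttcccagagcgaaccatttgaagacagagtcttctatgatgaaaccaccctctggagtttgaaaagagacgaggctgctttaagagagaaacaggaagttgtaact
Slc26a10: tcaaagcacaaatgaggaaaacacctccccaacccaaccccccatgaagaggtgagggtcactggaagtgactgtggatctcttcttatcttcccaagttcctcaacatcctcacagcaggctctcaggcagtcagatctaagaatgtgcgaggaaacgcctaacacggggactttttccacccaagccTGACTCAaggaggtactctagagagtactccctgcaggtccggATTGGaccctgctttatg
Slc9a3 and Slc9a7 held GC boxes and were rich in G and C (66.8% and 70.4%), whereas the Slc9a9 window held none of the 5 motifs and had 44.4% G and C. Slc9a3 also held an E-box, and Slc26a10 held an AP-1 and a CCAAT match. RefSeq gave a promoter for 31 of the 45 genes. The AP-1 letters stood in 2 of the 31 and in 4.05% of all 33469 promoters, and the GC box in 21 of the 31 and in 30.5%. The median share of G and C was 64% in the 31 windows and 51.2% in all promoters. The part of this in the count of GC boxes was not tested. The CRE stood in 3 of the 31 (1.59% of all), the E-box in 4 (5.59%) and CCAAT in 10 (34%). These are matches of letters, not measured binding sites.

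Ion cotransporters and exchangers made up 12 of the 45, of which 11 were tested in the average. After CCI 6 of them fell and 2 rose, beside 9.29% and 6.08% of all genes. The median averaged log2FC of the 11 was -0.63, and that of all genes -0.02. These shares and this median hold beside the role groups below as well. The lists chose the genes, so nothing is read from differences between role groups. Slc9a3 and Slc26a10 fell the most, and the intracellular exchangers Slc9a7 and Slc9a9 rose.

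Slc9a3 encodes the sodium-proton exchanger of the apical surface of kidney and gut epithelium. It had 18.1 and 13.1 CPM in the naïve males, 4.49 and 5.26 in the CCI males, 7.48 and 7.56 in the naïve females and 5.69 and 6.22 in the CCI females. The naïve males were highest and the CCI males lowest, and all CCI rats were below all naïve rats. Its averaged log2FC was -1.01 (SE 0.12, adjusted p = 0.00076, edgeR's quasi-likelihood test), with -1.67 in males and -0.35 in females. Slc9a7 encodes a sodium-proton exchanger of the trans-Golgi network and lies on the X chromosome. It had 10.4 and 11.3 CPM in the naïve males, 24.8 and 23.8 in the CCI males, 12.8 and 12.2 in the naïve females and 15.3 and 18.7 in the CCI females. All CCI rats were above all naïve rats, and the CCI males were highest. Its averaged log2FC was 0.80 (SE 0.079, adjusted p = 0.000395, edgeR), with 1.17 in males and 0.43 in females. Slc9a9 encodes the endosomal member of the same family. It had 139 and 156 CPM in the naïve males, 280 and 284 in the CCI males, 168 and 179 in the naïve females and 246 and 261 in the CCI females. The 4 CCI rats again stood above the 4 naïve rats. Its averaged log2FC was 0.74 (SE 0.055, adjusted p = 0.000183, edgeR), with 0.94 in males and 0.54 in females.

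Slc26a10 belongs to the family of anion exchangers. It had 7.07 and 5.14 CPM in the naïve males, 2.47 and 2.50 in the CCI males, 2.26 and 3.40 in the naïve females and 1.14 and 1.05 in the CCI females. CCI rats were below the naïve rats of their sex, while the CCI males overlapped the naïve females. Its averaged log2FC was -1.33 (SE 0.18, adjusted p = 0.00113, edgeR), and the change was close in size in the sexes, -1.29 in males and -1.38 in females. In the RefSeq annotation it overlaps B4galnt1, as 14 of the 45 genes overlap another protein-coding gene, 5 of them among the 18 called (also Slc12a3, Slc22a6, Slc25a42 and Slc26a6). The strand setting of the counting is not given in the sources used here, so the counts of these genes are uncertain. Slc26a6, which exchanges chloride for oxalate or bicarbonate, had 17.8 and 13.7 CPM in the naïve males, 6.82 and 6.87 in the CCI males, 7.29 and 10.1 in the naïve females and 7.18 and 6.24 in the CCI females. The 4 CCI rats were below all naïve rats, though CCI female 1 was only just below naïve female 1. On average the log2FC was -0.79 (SE 0.13, adjusted p = 0.00296, edgeR), with -1.20 in males and -0.38 in females.

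Slc12a3, the thiazide-sensitive sodium-chloride cotransporter of the kidney, had 11.5 and 7.28 CPM in the naïve males, 4.68 and 4.56 in the CCI males, 3.47 and 5.96 in the naïve females and 3.08 and 2.02 in the CCI females. CCI rats were below naïve rats within each sex, but CCI males overlapped naïve females and the naïve replicates lay far apart. This gave an averaged log2FC of -0.95 (SE 0.23, adjusted p = 0.0135, edgeR), with -1.02 in males and -0.89 in females, and without CCI female 2 the adjusted p was 0.0578. Slc12a4, the potassium-chloride cotransporter KCC1, had 114 and 92.6 CPM in the naïve males, 50.01 and 51.1 in the CCI males, 65.5 and 65.2 in the naïve females and 60.4 and 50.9 in the CCI females. Every CCI rat was below all naïve rats. Its mean over the sexes was a log2FC of -0.63 (SE 0.082, adjusted p = 0.000987, edgeR), with -1.03 in males and -0.24 in females. Slc12a7, the related cotransporter KCC4, was not called (averaged log2FC -0.08, adjusted p = 0.315, edgeR). Slc4a3, an anion exchanger of excitable tissue, had 71.3 and 55.1 CPM in the naïve males, 32.9 and 32.0 in the CCI males, 31.8 and 40.2 in the naïve females and 27.2 and 23.6 in the CCI females. CCI rats were below naïve rats within each sex, and the CCI males overlapped the naïve females. Averaged over the sexes, the log2FC was -0.73 (SE 0.11, adjusted p = 0.00164, edgeR), with -0.96 in males and -0.51 in females. Slc24a2, a sodium-calcium-potassium exchanger of neurons, had an averaged log2FC of 0.50, just inside the threshold (adjusted p = 0.00286, edgeR), and all CCI rats were above all naïve rats.

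**Figure D3:**
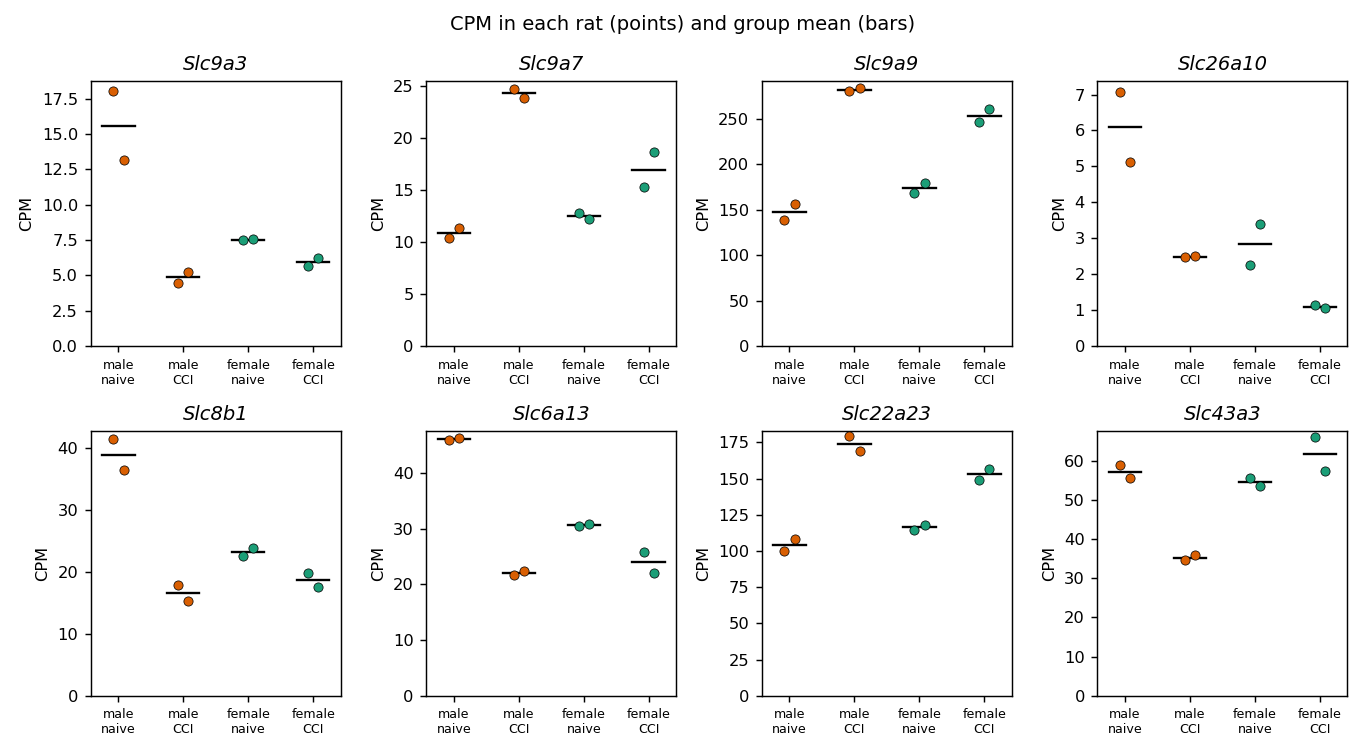
CPM of 8 solute carrier genes in each rat (points, orange for males and green for females) with the mean of the 2 rats of each group (bar), on axes that start at 0. Slc9a3, Slc26a10, Slc8b1 and Slc6a13 are lower in CCI than in naïve rats of each sex, Slc9a7, Slc9a9 and Slc22a23 are higher, and Slc43a3 is lower in CCI males (34.6 and 36.0 CPM) than in the other 6 rats.

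Of the 9 transmitter and amino acid transporters, 2 fell in the average and none was called higher. The median averaged log2FC of the 9 was 0.20. Slc6a13, the GABA transporter GAT2 of meninges and peripheral tissue, had 45.9 and 46.4 CPM in the naïve males, 21.7 and 22.5 in the CCI males, 30.4 and 30.9 in the naïve females and 25.9 and 22.03 in the CCI females. All CCI rats were below all naïve rats. On average the log2FC was -0.71 (SE 0.061, adjusted p = 0.000284, edgeR), with -1.06 in males and -0.37 in females. Slc6a15 (a neutral amino acid transporter of neurons, 0.47), Slc7a7 (a light chain for cationic amino acids, 0.44), Slc36a1 (the lysosomal proton-coupled amino acid transporter, 0.39) and Slc17a7 (the vesicular glutamate transporter VGLUT1, 0.20) passed the adjusted p of edgeR with an averaged log2FC inside the threshold. So did Slc6a6, the taurine transporter, at -0.29. Slc7a7 had 49.2 and 51.7 CPM in the naïve males, 81.3 and 78.9 in the CCI males, 62.5 and 64.5 in the naïve females and 69.8 and 78.0 in the CCI females, so that all CCI rats were above all naïve rats. Slc38a6 (-0.37) and Slc3a1 (0.53) did not pass the adjusted p, 0.0515 and 0.19 by edgeR.

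Of the 8 mitochondrial genes 3 fell and none was called higher. The median averaged log2FC of the 8 was -0.16. Slc8b1 encodes NCLX, which exchanges sodium for calcium across the inner membrane. It had 41.5 and 36.4 CPM in the naïve males, 17.9 and 15.4 in the CCI males, 22.5 and 23.9 in the naïve females and 19.8 and 17.5 in the CCI females. The 4 CCI rats were below all naïve rats, and the naïve males stood far above the other 6. This gave an averaged log2FC of -0.77 (SE 0.077, adjusted p = 0.000419, edgeR), with -1.22 in males and -0.33 in females. Slc25a10, the dicarboxylate carrier, had 60.7 and 47.9 CPM in the naïve males, 29.9 and 30.8 in the CCI males, 36.1 and 29.6 in the naïve females and 27.3 and 22.1 in the CCI females. CCI rats were below naïve rats within each sex, and CCI males overlapped naïve females. Its mean over the sexes was a log2FC of -0.62 (SE 0.11, adjusted p = 0.00308, edgeR), with -0.83 in males and -0.42 in females. Slc25a42, a carrier of coenzyme A, had 36.0 and 32.6 CPM in the naïve males, 19.1 and 19.0 in the CCI males, 21.9 and 24.1 in the naïve females and 18.1 and 19.2 in the CCI females. Every CCI rat was below all naïve rats. Averaged over the sexes, the log2FC was -0.58 (SE 0.059, adjusted p = 0.000454, edgeR), with -0.85 in males and -0.31 in females. The ADP/ATP carrier Slc25a4 (0.27), the phosphate carrier Slc25a3 (0.19) and the outer membrane protein Slc25a46 (0.20) passed the adjusted p of edgeR with an averaged log2FC inside the threshold, and all 3 were higher in both CCI males than in both naïve males while the female groups overlapped. The averaged log2FC of Slc25a33 was -0.17 and that of Slc25a40 -0.14, and neither passed the adjusted p.

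Of the 8 nucleoside, nucleobase and sugar transporters, 2 fell and 1 rose. Slc50a1, the mammalian member of the SWEET sugar transporters, had 17.8 and 14.9 CPM in the naïve males, 8.001 and 9.99 in the CCI males, 10.4 and 11.7 in the naïve females and 8.66 and 7.57 in the CCI females. All CCI rats were below all naïve rats. On average the log2FC was -0.65 (SE 0.11, adjusted p = 0.00254, edgeR), with -0.86 in males and -0.45 in females. Slc28a2, a concentrative nucleoside transporter, had 6.10 and 4.20 CPM in the naïve males, 2.55 and 1.61 in the CCI males, 2.39 and 3.29 in the naïve females and 2.64 and 3.07 in the CCI females. The male groups did not overlap, while the CCI females lay between the naïve females. Its averaged log2FC of -0.65 (SE 0.21, adjusted p = 0.040, edgeR) rested on the males (-1.30), since that of the females was 0.001. The call of Slc28a2 was lost without naïve male 1, CCI male 2, naïve female 2, CCI female 1 or CCI female 2, and the highest adjusted p over the alternatives was 0.136. Slc35g2, a member of the nucleotide sugar transporter family that had been listed as higher in naïve females, had 11.9 and 12.8 CPM in the naïve males, 23.1 and 21.3 in the CCI males, 18.4 and 17.7 in the naïve females and 21.7 and 22.9 in the CCI females. The 4 CCI rats were above all naïve rats. This gave an averaged log2FC of 0.58 (SE 0.059, adjusted p = 0.000453, edgeR), with 0.85 in males and 0.30 in females. Slc45a1 (a sugar transporter of brain, 0.43), Slc43a3 (a purine nucleobase transporter, -0.26) and Slc29a3 (a lysosomal nucleoside transporter, -0.24) passed the adjusted p of edgeR inside the fold threshold. Slc37a2 (0.19) and Slc35e4 (-0.12) did not.

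Among the 3 metal and organic ion transporters, Slc22a6 fell and Slc22a23 rose. Slc22a6, the organic anion transporter OAT1 of kidney, had 8.03 and 9.63 CPM in the naïve males, 5.41 and 5.30 in the CCI males, 5.18 and 6.005 in the naïve females and 3.51 and 2.89 in the CCI females. CCI rats were below naïve rats within each sex, and CCI males overlapped naïve females. Its mean over the sexes was a log2FC of -0.76 (SE 0.12, adjusted p = 0.00188, edgeR), with -0.72 in males and -0.81 in females. Slc22a23, an orphan of the same family, had 99.7 and 109 CPM in the naïve males, 179 and 169 in the CCI males, 114 and 118 in the naïve females and 149 and 157 in the CCI females. Every CCI rat was above all naïve rats. Averaged over the sexes, the log2FC was 0.57 (SE 0.050, adjusted p = 0.000294, edgeR), with 0.74 in males and 0.39 in females. The manganese exporter Slc30a10 had -0.18, inside the threshold, with an adjusted p of 0.034 by edgeR.

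None of the 4 tested monocarboxylate and fatty acid transporters was called. The averaged log2FC was -0.45 for Slc27a1, which takes up fatty acids, and -0.33 for Slc16a13, and edgeR's adjusted p was 0.00196 and 0.0233. The averaged log2FC of Slc27a3 was -0.18 and that of Slc16a14 was 0.15, and neither passed the adjusted p. Slc16a11, a monocarboxylate transporter that the list of changes in males had named, is given without a test. It had 122 and 102 CPM in the naïve males, 39.7 and 33.8 in the CCI males, 77.4 and 94.1 in the naïve females and 63.6 and 44.3 in the CCI females. All CCI rats were below all naïve rats, with a log2FC of -1.60 in males and -0.68 in females. Slc16a11 and Slc16a13 are neighbours that overlap in the RefSeq annotation, so reads may be shared between them.

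Within each sex the calls of edgeR are given as counts only. In males 29 of the 45 genes were called, 10 higher and 19 lower, beside 21.6% of all genes (9.05% higher and 12.5% lower). In females 5 were called, 1 higher (Slc9a9) and 4 lower (Slc4a1, Slc26a10, Slc22a6 and Slc16a11), beside 5.69% of all genes (3.69% higher and 2% lower). Genes called in both sexes numbered 4, namely Slc26a10, Slc22a6, Slc16a11 and Slc9a9, beside 3.34% of all genes. Without CCI male 1 the male comparison made 0 calls over all genes, although 39 of the 45 had an unadjusted p under 0.05, and without CCI male 2 it called 18. The 5 calls in females became 1 without CCI female 1, 1 without CCI female 2 and 8 without naïve female 1. The median log2FC of the 45 was -0.45 in males and -0.04 in females, and of all genes -0.01 and -0.02. Both comparisons use naïve libraries that helped to choose the genes, and nothing is read from these counts.

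**Figure D4:**
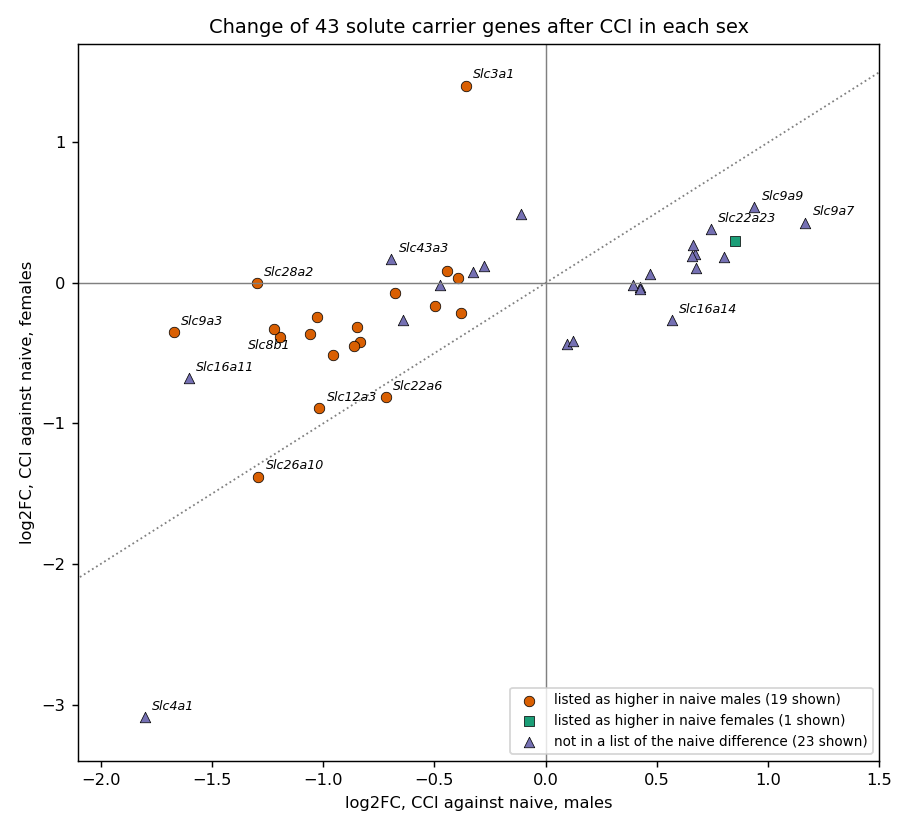
Log2FC of CCI against naïve in females (vertical) and in males (horizontal) for 43 of the 45 genes, by the list that had named them; Slc24a5 (-2.55 in males, 1.28 in females) lies outside the axes and the dotted line marks equal change. Most points lie nearer to 0 on the female axis, with Slc26a10 and Slc22a6 close to the line and Slc4a1 far below it.

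Slc4a1 encodes band 3, the anion exchanger of the red blood cell membrane, and had been listed as lower after CCI in females. It had 0.306 and 8.82 CPM in the naïve males, 1.15 and 1.49 in the CCI males, 6.83 and 10.2 in the naïve females and 0.879 and 1.13 in the CCI females. Both CCI females were below both naïve females, whereas in males the naïve rats lay on either side of the CCI rats. The log2FC was -3.09 (SE 0.27) in females and -1.80 (SE 1.4) in males. Hemoglobin genes and Alas2, 7 red blood cell genes in all, summed to 139 and 1519 CPM in the naïve males, 275 and 245 in the CCI males, 1582 and 2361 in the naïve females and 196 and 245 in the CCI females. The same 3 naïve libraries were high in Slc4a1 and in this sum. All 7 genes had, like Slc4a1, been listed as lower after CCI in females, so the order of the female libraries was set by that list. In the males, naïve male 2 was high and naïve male 1 low in both. The part of blood in the ganglia in the level of Slc4a1 was not tested.

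**Figure D5:**
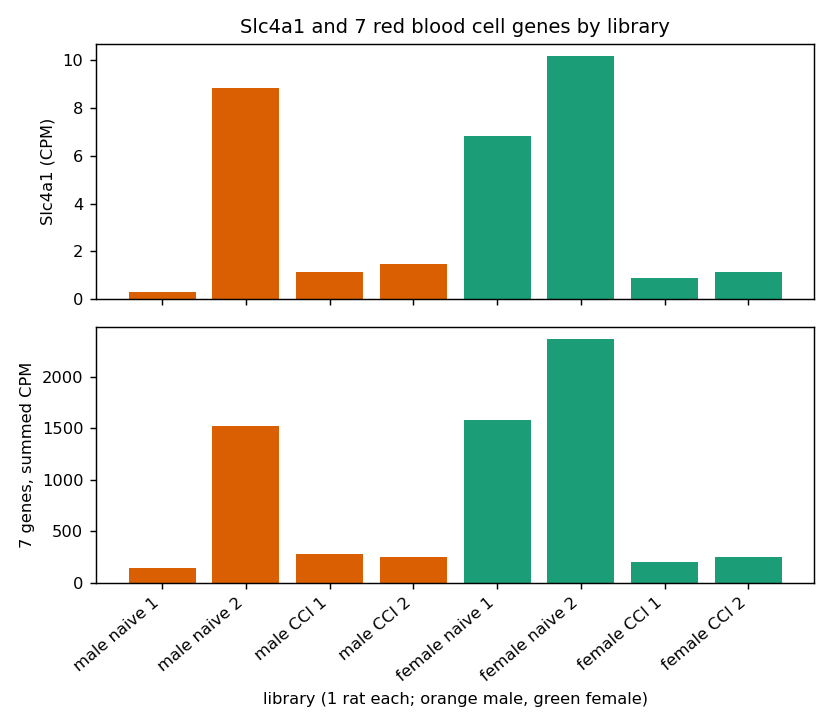
CPM of Slc4a1 (top) and summed CPM of 7 red blood cell genes (bottom) in each of the 8 libraries, orange for males and green for females, 1 rat a bar, with axes from 0. Naïve male 2 and both naïve females stand high in both panels, and naïve male 1 (0.306 CPM of Slc4a1) and the 4 CCI rats stand low.

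CCI females were next compared with CCI males, on the 4 CCI libraries, for the 22 genes that the naïve sex difference had listed. That list compares naïve rats. Whether the CCI libraries entered its scaling or its estimate of the spread is not stated, so the comparison may not be fully independent of it. EdgeR called 0 of the 22, beside 1.06% of all genes, and 6 of the 22 had an unadjusted p under 0.05, beside 18.3% of all genes. DESeq2 called 1 of the 22, Slc26a10. Among the 13 that the interaction had not listed as well, edgeR also called 0 and DESeq2 the same gene, but the absence from the interaction list depends on the CCI libraries. Of the 21 genes that were higher in naïve males, 13 had a log2FC below 0 in CCI females against CCI males and 8 above 0, with a median of -0.08. Both CCI females were below both CCI males in 9 of the 21 and above them in 2, beside 26.5% and 24.7% of all genes. Slc26a10 differed most, with a log2FC of -1.18 (SE 0.22, adjusted p = 0.0749, edgeR). Slc22a6 followed the same order of the sexes (-0.74, SE 0.17, adjusted p = 0.112, edgeR), as did Slc12a3 (-0.85, SE 0.24, adjusted p = 0.152, edgeR). The sign was the other way for Slc9a3 (0.29, SE 0.16, adjusted p = 0.393, edgeR). Slc43a3, which the interaction had listed, is given without a test. It had 58.9 and 55.6 CPM in the naïve males, 34.6 and 36.0 in the CCI males, 55.7 and 53.5 in the naïve females and 66.1 and 57.4 in the CCI females. Both CCI males were lower than every other rat, and the log2FC of CCI females against CCI males was 0.81.

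In naïve rats, the difference that chose 22 of the genes ran from a log2FC of females against males of -3.84 for Slc24a5 to 0.90 for Slc4a1. Slc4a1 was not among the 22, and its value had an SE of 1.23, with naïve males at 0.306 and 8.82 CPM. EdgeR at the same thresholds called 0 of the 45 in this contrast, beside 0.0706% of all genes, while 37 of the 45 had an unadjusted p under 0.05, beside 25.6% of all genes. The lowest values after Slc24a5 were those of Slc3a1 (-1.61) and Slc26a10 (-1.10), and the highest after Slc4a1 were those of Slc35g2 (0.55) and Slc7a7 (0.33). Slc24a5, a calcium exchanger known from pigment cells, had 72 and 33 counts in the naïve males, 12 and 6 in the CCI males, 4 and 2 in the naïve females and 6 and 7 in the CCI females. These counts are low, and only the naïve males and CCI male 1 reached 10. Slc3a1, the heavy chain of a transporter for cystine and basic amino acids, had 1.13 and 1.21 CPM in the naïve males, 1.22 and 0.598 in the CCI males, 0.359 and 0.402 in the naïve females and 1.27 and 0.768 in the CCI females. Its naïve females were the lowest of the 8 rats. The interaction was coded as the CCI change in females minus that in males. It was highest for Slc24a5 (3.85), Slc3a1 (1.77) and Slc9a3 (1.34) and lowest for Slc4a1 (-1.28, SE 1.52), Slc16a14 (-0.82) and Slc9a7 (-0.73). EdgeR called it in 4 of the 45, beside 1.55% of all genes, and nothing is read from this count, since the interaction had chosen 31 of the 45. Slc16a14 had 13.2 and 15.5 CPM in the naïve males, 20.9 and 21.6 in the CCI males, 14.2 and 15.5 in the naïve females and 10.9 and 13.99 in the CCI females. The CCI males stood above the other 6 rats.

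The 2 naïve males are compared here by list, although the lists were made with these same values. Naïve male 1 was above naïve male 2 in 14 of the 15 interaction-listed genes with an interaction above 0, in 0 of the 16 with an interaction below 0, and in 55.3% of all genes. It was also above naïve male 2 in 11 of the 14 genes that fell in the average and in 0 of the 4 that rose. The share over all genes called lower or higher was not computed, and nothing is read from these counts. Without naïve male 1 the average called 17 genes, 4 higher and 13 lower.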

How the data were processed

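RNA of pooled L4-L6 DRGs was sequenced as paired ends from poly(A) libraries made with a kit that keeps strand, in 2 batches that are not named per library. The authors removed ribosomal RNA reads, aligned to rn6 with HISAT2 and counted reads per Ensembl gene with featureCounts, and the deposited values are these raw counts. The submitters' processing notes also name CASAVA 1.8.2. No batch correction was made. Whether counting used strand is not given in the sources used here.

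Symbols came from the pairs the study published. Genes were kept by filterByExpr (minimum count 10, minimum total count 15), counts were scaled by TMM and tested with edgeR 4.0.16 (R 4.3.3), with Benjamini-Hochberg adjustment over all genes. Genes were called at an adjusted p below 0.05 with a log2FC beyond 0.5 in either direction. The average over the sexes used all 8 libraries, and other comparisons the 4 libraries concerned. SEs were taken as the absolute log2FC over the square root of F. An exact test of 2 rats against 2 cannot go below a p of 0.333, so single values were not tested apart. Nothing says whether rats of a group shared a litter or day.

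The 45 genes, role groups, marker lists and tests were chosen with earlier results of these data known. Counts include 1 gene whose own values are not given here. Values in every library are given for the other genes called in the average, Slc16a11, Slc4a1, the 3 genes a direction with the largest naïve difference and interaction, and Slc24a5 as nearest the count threshold. Slc43a3 was added after its values were seen. Alternatives were DESeq2 1.42.0, its size factors or upper-quartile scaling in edgeR, no count filter, 10 counts in every library, no log2FC threshold, an additive model, a fit of all 8 libraries, the replicate number as a block, and each library left out. Added after seeing the data were limma 3.58.1 (voom with a weight per group), a block in males only and the reading of 22 genes in the comparison of CCI rats, with its alternatives. Promoters came from RefSeq (GRCr8).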

Additional observations from a re-analysis of the deposited data

Results flagged for a closer look

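The interaction had chosen 31 of the 45 genes, so the values here are descriptions. For 4 genes the interaction of sex and injury was called by edgeR over all genes, and its value is the log2FC in females minus that in males. The difference was 0.88 for Slc43a3 (-0.69 in males, 0.17 in females), 0.71 for Slc6a13 (-1.06 and -0.37), 0.91 for Slc8b1 (-1.22 and -0.33) and 1.34 for Slc9a3 (-1.67 and -0.35).

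In 6 further genes the CCI males were both beyond the naïve males in 1 direction. The CCI females were both beyond the naïve females in the opposite direction. EdgeR did not call the interaction in these 6 genes. Their log2FC within a sex was as small as 0.09 in males (Slc25a33) and 0.08 in females (Slc35e4). With Slc43a3, such opposite ranges were seen in 7 of the 45 genes and in 7.01% of all genes. The interaction log2FC was 0.41 for Slc12a7, 0.42 for Slc35e4 and 3.85 for Slc24a5, which were lower in CCI males and higher in CCI females. It was -0.82 for Slc16a14 and -0.52 for both Slc25a33 and Slc25a40, which were higher in CCI males and lower in CCI females. The counts of Slc24a5 were from 2 to 12 in all but the naïve males.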

How the results depend on the processing

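In the averaged comparison the 18 calls became 33 without a log2FC threshold and from 16 to 21 when 1 library was left out, with counts within 1.5 times of 18 under every other alternative. Of the 18 genes, 16 kept the call under all 18 alternatives each, Slc28a2 lost it under 6 and Slc12a3 under 1, and 0 of 324 values changed sign. Between CCI females and CCI males the 0 calls, over the 22 genes as over the 13, became 1 with DESeq2 and 1 with 10 counts in every library, both Slc26a10, and were from 0 to 0 when 1 library was left out. In males the 29 calls ran from 0 to 33 with 1 library left out and were 39 without a log2FC threshold. In females the 5 calls were 8 without a log2FC threshold, 3 in a fit of all 8 libraries and from 1 to 8 with 1 library left out. Where a left-out library left 1 rat in a group, that rat was assumed to vary like the others. The cause of these shifts was not tested.

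The replicate number used as a block gave 18 calls in the average, 0 between CCI females and CCI males (of 22 as of 13 genes), 29 in males and 6 in females. With the block in males only, the average also had 18 calls. Deviations of same-numbered rats correlated at 0.739 between naïve and CCI males and from -0.03 to 0.151 between other groups, and no source says what the numbers share. The table headers of replicate 1 of both male groups end in an extra letter, whose meaning is not given. The widest SEs of the average were those of Slc4a1 (0.79), Slc24a5 (0.46) and Slc3a1 (0.29).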
